A study of Homo sapiens with 6 samples.

Results

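The genes described here handle secreted and membrane proteins in the endoplasmic reticulum (ER) or signal the unfolded protein response. They are 47 genes in 4 classes, namely 20 genes of protein folding, 11 of translocation into the ER, 10 of ER-associated degradation and 6 sensors and regulators. They were picked by name, as every probe set of the array whose only platform gene symbol was 1 of the 47. In all, 46 of the 47 had a probe set, with 165 probe sets among the 49293 that are not controls, and these 46 stand among 18132 measured genes. SEC61G is named only. HCT116, a human colorectal cancer cell line, was transduced with a lentivirus that encoded an shRNA against PNO1 (sh-PNO1, 3 samples) or a control shRNA (sh-Ctrl, 3 samples), and RNA was taken after 72 h in both groups. PNO1 is a nucleolar protein needed to mature the small ribosomal subunit. Each sample was hybridised to 1 Affymetrix array, so every sample comes from 1 cell line and carries a lentiviral shRNA. With 1 group for each shRNA, loss of PNO1 and any other effect of the same hairpin cannot be told apart. Nothing in the labels says that the replicates were separate cultures, so the p-values below reflect array-to-array scatter within a group, and that scatter may be technical in origin.

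In the ER, newly made proteins enter through the SEC61 channel, fold with the help of chaperones, lectins and disulfide isomerases, and are passed to the cytosolic proteasome by the degradation machinery if they fail to fold. Unfolded protein activates the sensors IRE1 (gene ERN1), ATF6 and PERK (gene EIF2AK3). ATF6 and the XBP1 protein made after IRE1 splices its messenger then raise transcription of chaperone and degradation genes, while PERK lowers translation and favours that of ATF4. Cells of secretory epithelia use this response to match folding capacity to load.

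The hairpin's target was checked first. PNO1 had intensities of 105, 108 and 105 on the sh-PNO1 arrays, against 535, 535 and 532 on the sh-Ctrl arrays, for its brightest probe set (a log2 difference of −2.33 ± 0.04 SE with a limma adjusted p = 1.89e-07). The sh-PNO1 mean was 19.8% of the sh-Ctrl mean, and both other probe sets were lower too. An exact two-sided permutation test gave p = 0.1, the smallest value that 3 arrays against 3 can reach. Median intensities lay between 25.6 and 25.9 on every array. Of 9 epithelial and colon markers, EPCAM averaged 1908 in sh-PNO1 and 1998 in sh-Ctrl, and KRT18 averaged 2412 and 2469 in the same order. The intestinal markers VIL1 (4.38 and 4.88) and CDX1 (23.0 and 23.0) were dim. The summed intensity of these 9 markers ran from 9795 to 10206 in sh-PNO1 and from 9071 to 9459 in sh-Ctrl. Of them 2 were higher (CDH1 and KRT19) and 0 lower, where 20.0% of all genes were higher and 14.2% lower. The 7 measured markers of blood, stromal and endothelial cells had group means of 3.65 to 37.5 and included 2 below an unadjusted p of 0.05 in limma but 0 after adjustment, and their sums were 105 to 109 in sh-PNO1 and 102 to 104 in sh-Ctrl. As a sign of RNA quality, the log2 intensity of ACTB at its 3′ end minus that at its 5′ end was 1.79, 2.25 and 1.73 in sh-PNO1 replicates 1, 2 and 3, against 1.87, 1.86 and 1.82 in sh-Ctrl. The same difference for GAPDH was −0.06, −0.08 and −0.06 in sh-PNO1 against −0.03, −0.02 and −0.01 in sh-Ctrl. Their part in the results below was not tested.

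Promoter sequence is shown here because many genes of the unfolded protein response carry recognised elements near the start of transcription. The ER stress element (ERSE, CCAAT and CCACG separated by any 9 bases) is bound by ATF6 together with the CCAAT-binding factor NF-Y, ERSE-II (ATTGG and CCACG separated by any 1 base) is a compact relative, and the unfolded protein response element (UPRE, searched as TGACGTGG) is bound by XBP1 and ATF6. These exact letters were sought on both strands of RefSeq promoter windows of build GRCh38.p14 that run from 250 bases before to 50 bases after the annotated start, which matched 42 of the 46 members on the array. ERSE was present in 8 of 42 members (19.0%), against 18 of 14425 array genes with a window (0.125%). ERSE-II was present in 3 members (7.14%), against 16 array genes (0.111%), and UPRE in 5 members (11.9%), against 160 array genes (1.11%). In each count the array genes include the members. These elements were first described in genes of this kind, so their abundance here is a description of the members. The stretches below hold 1 or more of the elements in members that fell, read 5′ to 3′ along the gene, with the element in capitals. HSPA5 lies on the minus strand (chr9:125241366-125241434), as do PDIA6 (chr2:10812828-10812896), XBP1 (chr22:28800578-28800646), HYOU1 (chr11:119057249-119057418) and SSR3 (chr3:156554134-156554191). HSP90B1 (chr12:103930191-103930364), CALR (chr19:12938359-12938427), HERPUD1 (chr16:56932000-56932060) and SDF2L1 (chr22:21642089-21642149) lie on the plus strand.
HSPA5: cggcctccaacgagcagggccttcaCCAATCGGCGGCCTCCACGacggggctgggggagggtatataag
PDIA6: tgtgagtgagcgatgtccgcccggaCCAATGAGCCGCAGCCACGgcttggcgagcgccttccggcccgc
XBP1: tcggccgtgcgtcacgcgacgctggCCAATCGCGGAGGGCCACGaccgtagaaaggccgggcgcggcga
HSP90B1: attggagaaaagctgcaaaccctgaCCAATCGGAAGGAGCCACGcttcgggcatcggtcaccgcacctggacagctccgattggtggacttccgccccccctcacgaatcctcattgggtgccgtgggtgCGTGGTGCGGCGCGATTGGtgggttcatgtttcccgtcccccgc
CALR: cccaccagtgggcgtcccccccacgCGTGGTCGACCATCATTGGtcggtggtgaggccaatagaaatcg
HERPUD1: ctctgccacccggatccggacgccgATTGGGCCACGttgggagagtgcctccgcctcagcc
SDF2L1: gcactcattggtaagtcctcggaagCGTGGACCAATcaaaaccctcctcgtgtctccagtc
HYOU1: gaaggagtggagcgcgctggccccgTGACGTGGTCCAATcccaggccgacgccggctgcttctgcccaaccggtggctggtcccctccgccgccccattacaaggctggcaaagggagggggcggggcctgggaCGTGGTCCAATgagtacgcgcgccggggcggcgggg
SSR3: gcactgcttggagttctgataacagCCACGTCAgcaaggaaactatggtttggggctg
In HSPA5, PDIA6 and XBP1 the ERSE reads along the gene, in CALR it reads on the opposite strand, and HSP90B1 has 1 in each direction. HERPUD1 has ERSE-II along the gene and SDF2L1 on the opposite strand. HYOU1 has ERSE-II on the opposite strand in 2 places, the first of which overlaps a UPRE, and SSR3 has a UPRE on the opposite strand.

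Most of the 46 members were lower after PNO1 knockdown. Of these, each represented by its brightest probe set, 29 fell and 4 rose at a limma adjusted p under 0.05, and 13 did not pass. Over all 18132 genes 14.2% fell and 20.0% rose. The members were chosen with earlier results of these data known, so these shares describe the members and do not test them. The median log2 fold change of the members was −0.26, against 0.03 over all genes. Changes were moderate in size: 11 members fell by 0.5 or more on the log2 scale, where 3.90% of all genes did, and 1 (DERL1) rose by as much, where 2.98% did. SEC63 alone among the members reached a 2-fold change on its brightest probe set. Dimmer probe sets of PDIA3 (−1.16), HYOU1 (−1.15) and SEC62 (−1.02) also did. In 33 members the highest sh-PNO1 value was below the lowest sh-Ctrl value, and in 6 members the groups were separated in the other direction, against 18.4% and 26.3% of all genes. Counted over all probe sets, 92 of the members' 165 were lower and 9 higher, where 13.2% and 14.8% of all probe sets were. Without sh-PNO1 replicate 2, the array with the largest ACTB 3′ to 5′ difference, 28 members fell and 3 rose. Only 10 members were brighter in 1 group or both than all 23 background probe sets of the array, the highest of which averaged 804 in its brighter group. This bound is strict, as the means of the background probe sets over all arrays ran from 2.53 to 772.7. The folds of the dimmer members may be understated. Within members, the brightest probe set had the smallest fall in some (HSPA5 and PDIA3) and the largest in others (CALR and CREB3L2). As bulk RNA was measured, fewer expressing cells and less RNA per cell cannot be told apart.

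**Figure D1:**
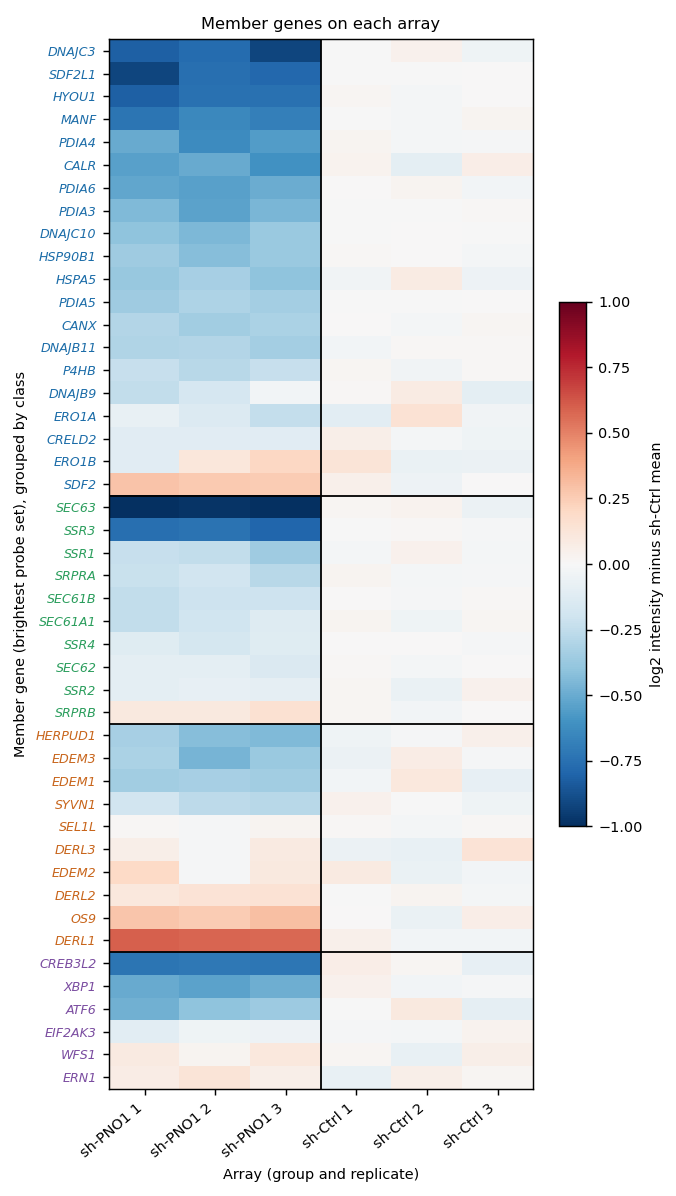
Heat map of the 46 member genes (rows, grouped into folding, translocation, degradation and sensor classes) on the 6 arrays (columns), coloured by log2 intensity minus the mean of the 3 sh-Ctrl arrays. The 3 sh-PNO1 columns resemble each other and are blue for most folding and translocation genes, while DERL1, OS9 and SDF2 are red.

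**Figure D2:**
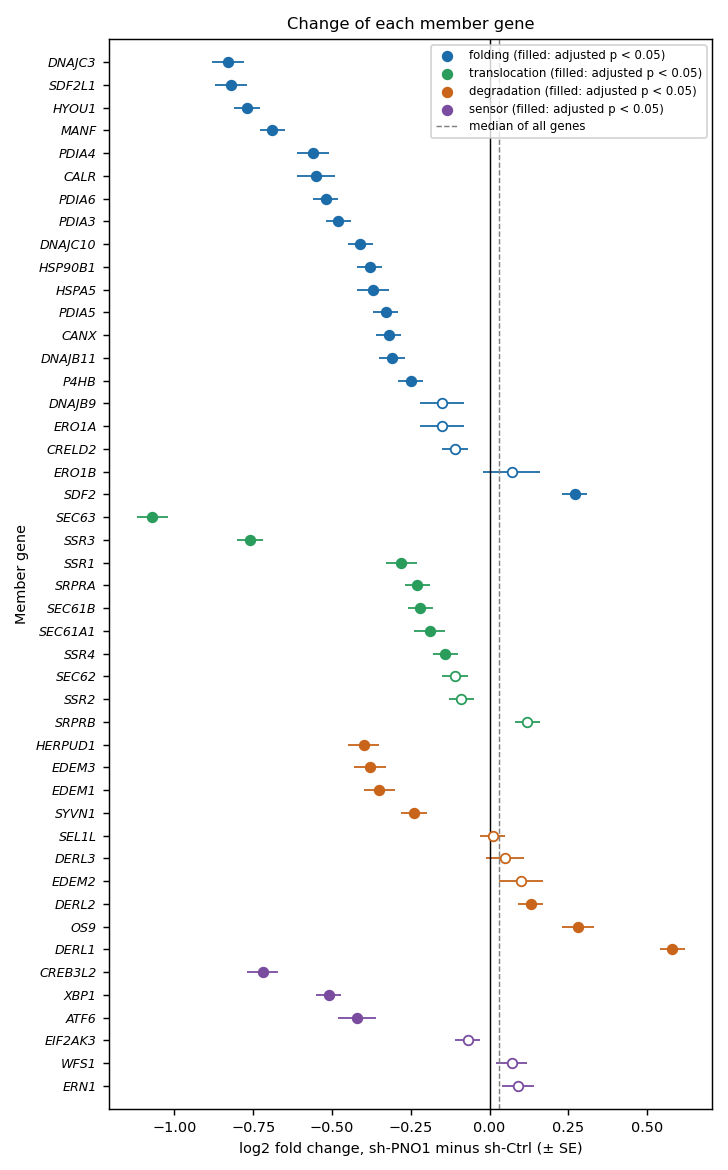
Log2 fold change of each member gene, sh-PNO1 minus sh-Ctrl, with its SE (n = 3 arrays each). Filled points passed an adjusted p of 0.05; they run from −1.07 for SEC63 to 0.58 for DERL1.

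Of the 20 folding genes, 15 fell and 1 rose, with a median log2 fold change of −0.38, and those that fell had 56.1% to 84.3% of the sh-Ctrl intensity. Those with the smallest adjusted p were HYOU1, MANF, DNAJC3, SDF2L1 and PDIA6. HYOU1 is a large chaperone of the HSP70 family that acts as a nucleotide exchange factor for BiP, the protein of HSPA5. It measured 201, 210.0 and 210.2 in sh-PNO1, against 357, 348 and 354 in sh-Ctrl (a change of −0.77 ± 0.04 SE in log2, limma adjusted p = 8.25e-06). The groups lay far apart relative to their spread, although 5 of its 9 probe sets passed as lower, the others standing between −0.20 and −0.10. MANF is a small ER-resident and secreted factor that binds BiP. Its only probe set measured 789.6, 836 and 814 in sh-PNO1, against 1306, 1290.3 and 1333 in sh-Ctrl (−0.69 ± 0.04 SE, adjusted p = 1.49e-05).

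DNAJC3, also called p58IPK, is a BiP co-chaperone and an inhibitor of PERK. It measured 69.98, 72.0 and 65.3 in sh-PNO1, against 122.8, 127 and 119.8 in sh-Ctrl (log2 fold change −0.83 ± 0.05 SE, adjusted p = 1.52e-05), and its 3 probe sets were all lower. SDF2L1, a partner of ER J-domain proteins that keeps BiP clients soluble, measured 316, 353 and 346 in sh-PNO1, against 597, 595 and 599 in sh-Ctrl (−0.82 ± 0.05 SE, adjusted p = 1.78e-05). On the sh-PNO1 replicate 1 array it was lowest, and all 3 sh-Ctrl values were within a few units of each other. Its paralogue SDF2 moved the other way, with 205, 202 and 200.5 in sh-PNO1, against 174, 162 and 169 in sh-Ctrl (0.27 ± 0.04 SE, adjusted p = 0.00171). SDF2, for which the groups did not overlap either, was the folding gene that rose, and both paralogues have a single probe set on the array.

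The members PDIA3, PDIA4, PDIA5, PDIA6 and P4HB are protein disulfide isomerases, which form and rearrange disulfide bonds, and each of them fell. Of related genes outside the members, TMX1 (−0.48, 3 of 4 probe sets lower), TMX3 (−0.59, 2 of 7) and TXNDC12 (−0.38, 2 of 2) fell. ERP44 stood at 0.10 (adjusted p = 0.104) on its brightest probe set, although 1 of its 4 was lower. ERP29 stood at 0.06 (adjusted p = 0.309). PDIA6 measured 385, 379 and 392 in sh-PNO1, against 554, 563 and 541 in sh-Ctrl (log2 fold change −0.52 ± 0.04 SE, adjusted p = 4.27e-05), and all 3 of its probe sets were lower. PDIA4 changed by −0.56, PDIA3 (ERp57, which works with the lectin chaperones) by −0.48, PDIA5 by −0.33 and P4HB, the archetypal isomerase, by −0.25. A second, dimmer PDIA3 probe set averaged 39.9 ± 2.39 in sh-PNO1 and 89.0 ± 1.11 in sh-Ctrl (SD, n = 3 each), a larger change of −1.16 on the log2 scale. The oxidases that recharge these enzymes did not pass on their brightest probe sets: ERO1A stood at −0.15 (adjusted p = 0.167) and ERO1B at 0.07 (adjusted p = 0.608). Between the probe sets of ERO1A the direction differed, the other one being higher (0.36).

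The classical ER chaperones HSPA5 and HSP90B1 fell on every probe set. HSPA5, which encodes BiP, the chaperone that also holds the stress sensors inactive, averaged 3017 ± 77.9 in sh-PNO1 and 3906 ± 188 in sh-Ctrl (SD, n = 3 each), a log2 fold change of −0.37 ± 0.05 SE (adjusted p = 0.00065). Its 6 probe sets were all lower, from −0.68 to −0.37, the brightest having the smallest change. HSP90B1 (GRP94), the HSP90 of the ER, averaged 3556 ± 83.0 in sh-PNO1 and 4642 ± 59.1 in sh-Ctrl (−0.38 ± 0.04 SE, adjusted p = 0.000193), with 7 of 7 probe sets lower. The membrane-bound lectin CANX (calnexin) changed by −0.32 with 9 of 9 probe sets lower, and its soluble counterpart CALR (calreticulin) by −0.55 with 1 of 2. Among J-domain co-chaperones, DNAJB11 changed by −0.31 and DNAJC10, which also reduces disulfides, by −0.41. DNAJC10 passed as lower on 3 of its 7 probe sets and as higher on 1, and stood at 0.08 (adjusted p = 0.259) when those with names ending in _x_at or _s_at, which may match more than 1 transcript, were left out. DNAJB9, a repressor of IRE1, stood at −0.15 (adjusted p = 0.153) with overlapping groups, and CRELD2, a secreted ER stress protein, at −0.11 (adjusted p = 0.0763).

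In the translocation class 7 of 10 genes fell and 0 rose on their brightest probe sets, with a median log2 fold change of −0.20 (1 higher at an unadjusted p under 0.05). The largest change of any member was that of SEC63, a J-domain membrane protein that brings BiP to the channel. It measured 125, 140.2 and 131 in sh-PNO1, against 279.9, 283 and 266 in sh-Ctrl (log2 fold change −1.07 ± 0.05 SE, adjusted p = 7.38e-06), and its 3 probe sets were all lower (−1.23 to −0.77). SSR3, the gamma subunit of the translocon-associated protein complex (TRAP), measured 419.5, 424 and 409.7 in sh-PNO1, against 709, 717 and 702 in sh-Ctrl (−0.76 ± 0.04 SE, adjusted p = 6.95e-06). All 4 SSR3 probe sets were lower. The sh-PNO1 arrays differed little among themselves in SSR3, and all lay well below the sh-Ctrl arrays.

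The other TRAP subunits, which help nascent chains enter the channel, changed less. SSR1 measured 870.5, 861 and 797 in sh-PNO1, against 1009, 1051 and 1007 in sh-Ctrl (log2 fold change −0.28 ± 0.05 SE, adjusted p = 0.00271). The probe sets of SSR1 did not all move together: 6 of 8 passed as lower and 1 as higher (0.33), and the higher one represents the gene once _x_at and _s_at probe sets are left out. SSR4 changed by −0.14 (adjusted p = 0.0247), a call lost without sh-PNO1 replicate 2 or sh-Ctrl replicate 1, 2 or 3 (adjusted p = 0.0516 to 0.0697), and SSR2 stood at −0.09 (adjusted p = 0.16). Of the channel itself, SEC61B, its beta subunit, measured 1715, 1765 and 1761 in sh-PNO1, against 2037, 2018 and 2049 in sh-Ctrl (−0.22 ± 0.04 SE, adjusted p = 0.00249). SEC61A1, the pore-forming subunit, changed by −0.19 (adjusted p = 0.0138). Its change stood at −0.05 (adjusted p = 0.518) once _x_at and _s_at probe sets were left out, and at −0.18 (adjusted p = 0.0508) without sh-Ctrl replicate 1. SEC62, the partner of SEC63 for proteins that enter after synthesis, stood at −0.11 (adjusted p = 0.0545) on its brightest probe set. Elsewhere in SEC62, 5 of 9 probe sets were lower, from −1.02 to −0.46, and their average over all 9 was −0.38 (adjusted p = 0.000113). The signal recognition particle receptor, which docks ribosomes at the ER, had SRPRA lower (−0.23, 4 of 5 probe sets) and SRPRB at 0.12 (adjusted p = 0.0571) on its brightest of 3 probe sets, 2 of which were higher.

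**Figure D3:**
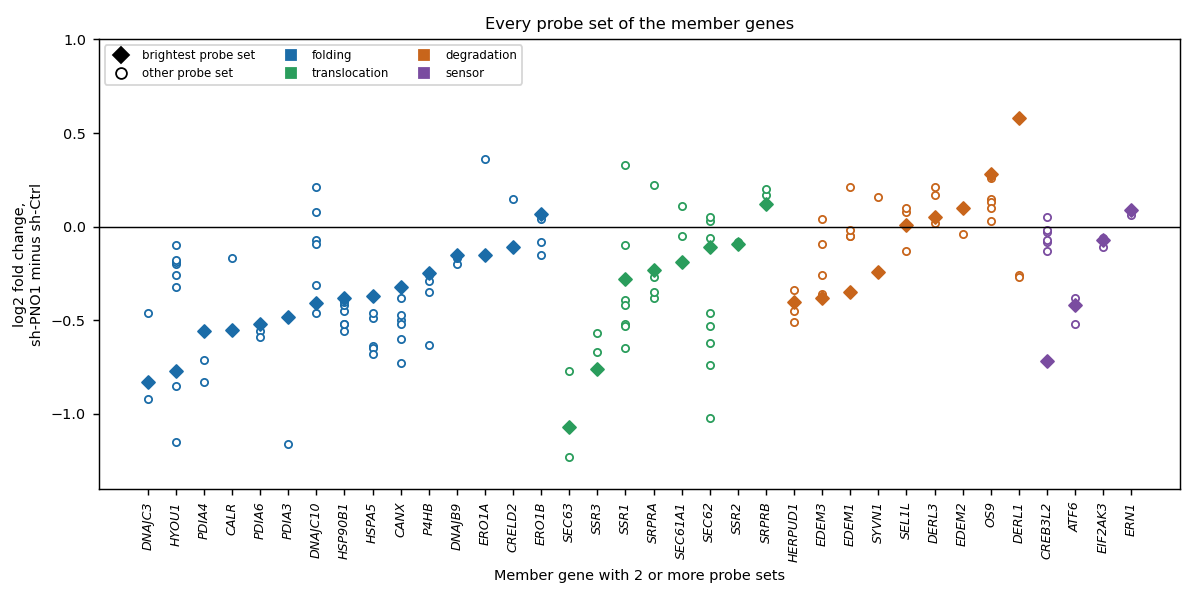
Log2 fold change, sh-PNO1 minus sh-Ctrl, of every probe set of the 36 members with 2 or more (diamond, the brightest; circle, the others). All probe sets of HSPA5, HSP90B1, CANX, SEC63 and SSR3 lie below 0, while those of DERL1, SSR1, SEC62 and DNAJC10 spread widely.

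On their brightest probe sets, degradation genes went both ways. Of 10, 4 fell and 3 rose, where 14.2% of all genes fell and 20.0% rose. Their median of 0.03 matched that of all genes. Each of the 3 rises depended on the choice of probe sets or on single arrays, as given below. HERPUD1, a scaffold of the membrane ubiquitin ligase complex, measured 247, 231 and 229 in sh-PNO1, against 302, 309 and 322 in sh-Ctrl (log2 fold change −0.40 ± 0.05 SE, adjusted p = 0.000402). The EDEM proteins trim mannose from glycoproteins and so mark them for disposal. EDEM3 measured 103.8, 93.9 and 99.7 in sh-PNO1, against 124, 136 and 128 in sh-Ctrl (−0.38 ± 0.05 SE, adjusted p = 0.00107). EDEM1 measured 64.6, 65.3 and 64.6 in sh-PNO1, against 80.7, 88.8 and 78.0 in sh-Ctrl (−0.35 ± 0.05 SE, adjusted p = 0.00167). Both were separated from sh-Ctrl on every array, but 1 of 5 EDEM1 probe sets was lower, and the average of all 5 stood at −0.05 (adjusted p = 0.328). EDEM2 stood at 0.10 (adjusted p = 0.317). The ubiquitin ligase SYVN1 (HRD1) changed by −0.24 (1 of 2 probe sets lower; their average −0.04, adjusted p = 0.472), while its adaptor SEL1L stood at 0.01 (adjusted p = 0.892).

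The derlins form a membrane channel for the exit of misfolded proteins. DERL1 measured 329, 326 and 324 in sh-PNO1, against 225, 214 and 214 in sh-Ctrl on its brightest probe set (log2 fold change 0.58 ± 0.04 SE, adjusted p = 2.86e-05). The remaining DERL1 probe sets pointed down: 1 measured 101, 107 and 107 in sh-PNO1 against 131, 127 and 119.0 in sh-Ctrl, and 1 measured 219, 221 and 236 in sh-PNO1 against 272, 274 and 266 in sh-Ctrl. Within each of these 3 probe sets the groups did not overlap, so DERL1 has no single direction on this array. DERL2 measured 323, 329.5 and 333 in sh-PNO1, against 299, 306 and 297 in sh-Ctrl on its only probe set (0.13 ± 0.04 SE, adjusted p = 0.033), and the call was lost on leaving out sh-PNO1 replicate 2 or 3 or sh-Ctrl replicate 1, 2 or 3 (adjusted p = 0.0519 to 0.0874). DERL3 stood at 0.05 (adjusted p = 0.627). OS9, a lectin that delivers glycoproteins to the ligase, measured 198, 196 and 202 in sh-PNO1, against 165, 157 and 171 in sh-Ctrl (0.28 ± 0.05 SE, adjusted p = 0.00217). Only 2 of the 6 OS9 probe sets passed as higher, both of the suffix _x_at, and with such probe sets left out OS9 stood at 0.10 (adjusted p = 0.277).

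Among sensors and regulators, 3 of 6 genes fell and 0 rose (0 higher at an unadjusted p under 0.05), with a median log2 fold change of −0.24. CREB3L2, a membrane-anchored transcription factor related to ATF6, measured 182, 184 and 184 in sh-PNO1, against 316, 307 and 285 in sh-Ctrl (−0.72 ± 0.05 SE, adjusted p = 2.39e-05). This change was seen on 1 of its 7 probe sets, and the other 6 had group means of only 4.16 to 15.2. XBP1, the transcription factor whose messenger IRE1 splices, measured 160.4, 156 and 162 in sh-PNO1, against 234, 222 and 225 in sh-Ctrl (−0.51 ± 0.04 SE, adjusted p = 5.92e-05). Its single probe set gives the total signal, and splicing was not analysed here. ATF6, the sensor that is cut in the Golgi to release a transcription factor, measured 60.2, 63.5 and 65.1 in sh-PNO1, against 83.7, 89.5 and 78.8 in sh-Ctrl (−0.42 ± 0.06 SE, adjusted p = 0.00092), with 3 of 3 probe sets lower. For XBP1 and ATF6 the sh-PNO1 values all lay below the lowest sh-Ctrl value.

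The kinase sensors did not pass. ERN1 (IRE1) was dim and measured 24.1, 25.1 and 23.9 in sh-PNO1, against 21.7, 23.8 and 23.2 in sh-Ctrl (log2 fold change 0.09 ± 0.05 SE, adjusted p = 0.198). EIF2AK3 (PERK) stood at −0.07 ± 0.04 SE (adjusted p = 0.254), with 0 of 3 probe sets called, and WFS1, a membrane protein that restrains ATF6, at 0.07 ± 0.05 SE (adjusted p = 0.296).

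Further genes of the same processes, from lists that hold none of the members, were counted in the same fit. Of all 81 such genes 22 fell and 28 rose, with a median log2 fold change of 0.04, where 14.2% of all genes fell and 20.0% rose. In folding, 10 of 19 fell and 2 rose, with a median log2 fold change of −0.19. TMX3, a membrane disulfide isomerase, changed by −0.59 and UGGT1, which re-glucosylates misfolded glycoproteins, by −0.41, each on a minority of its probe sets, while the co-chaperone DNAJC1 and the peroxiredoxin PRDX4 rose by 0.15 each. In targeting and membrane insertion, 6 of 24 fell and 12 rose, with a median of 0.15. SEC11A, a catalytic subunit of signal peptidase, averaged 771.7 ± 24.7 in sh-PNO1 and 1223 ± 16.5 in sh-Ctrl (SD, n = 3 each, log2 fold change −0.66, 4 of 4 probe sets lower). SRP54, the subunit of the signal recognition particle that binds signal sequences, changed by −0.59, while TRAM1, a translocon-associated membrane protein, rose by 0.68 with 3 of 3 probe sets higher and CAMLG, an insertase subunit for tail-anchored proteins, by 0.65 with 1 of 2.

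In the further degradation list 3 of 19 (15.8%) fell, near the 14.2% of all genes. In it 7 rose, where 20.0% of all genes did, and the median was 0.01. The ubiquitin-conjugating enzyme UBE2J1 changed by −0.86 (3 of 4 probe sets lower) and FAF2, which recruits the segregase VCP to the ER, by −0.74 (4 of 6), whereas the ligase RNF139 rose by 0.40 (1 of 2) and NGLY1, which strips N-glycans, by 0.27 (4 of 5). Of 19 further signalling genes 3 (15.8%) fell, again near the 14.2% of all genes. In this list 7 rose, where 20.0% of all genes did, and the median was 0.11. NFYA, a subunit of the CCAAT-binding factor NF-Y, changed by −0.71 on its brightest probe set (2 of 5 lower), and MBTPS2, the protease that makes the final cut in ATF6, by −0.43 (1 of 2). NFYB (0.11, adjusted p = 0.166) and NFYC (adjusted p = 0.978), of the same factor, did not pass. Nor did MBTPS1 (0.06, adjusted p = 0.329) on its brightest probe set, though 1 of 2 was lower. These were named after their values were seen. DDIT3, the CHOP transcription factor induced downstream of PERK and other eIF2α kinases, measured 101, 94.6 and 84.0 in sh-PNO1, against 52.4, 55.7 and 48.2 in sh-Ctrl (0.84 ± 0.08 SE, adjusted p = 0.000141). PPP1R15B, a regulatory subunit of the eIF2α phosphatase, rose by 0.80 with 4 of 4 probe sets higher. ATF4, which was named after its values were seen, stood at 0.02 (adjusted p = 0.752). Differences between these lists, and between the 4 classes of members, were not tested.

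**Figure D4:**
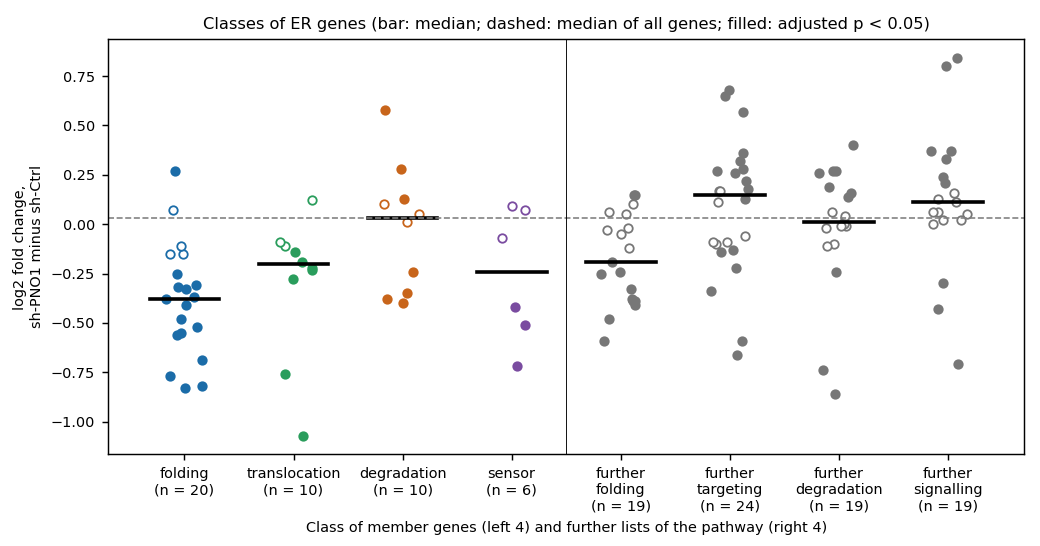
Log2 fold change, sh-PNO1 minus sh-Ctrl, of each gene in the 4 member classes and the 4 further lists (bar, median; dashed line, median of all genes). Medians were −0.38 for folding, −0.20 for translocation, 0.03 for degradation and −0.24 for sensors, against −0.19, 0.15, 0.01 and 0.11 for the further folding, targeting, degradation and signalling lists.

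The promoter elements shown above were set beside these changes. Of the 11 members with ERSE or ERSE-II, 9 fell and 0 rose, with a median log2 fold change of −0.40 (CRELD2 and ERO1B did not pass). The 3 with ERSE-II changed by −0.82 (SDF2L1), −0.77 (HYOU1) and −0.40 (HERPUD1). Of the 31 members with neither element, 18 fell and 3 rose, with a median of −0.22. ERSE was in 7 folding genes and 1 sensor gene, and ERSE-II in 2 folding genes and 1 degradation gene. The folding class as a whole had a median of −0.38, so element and class overlap in this comparison. SEC63, DNAJC3 and MANF, among the members that fell most, held none of the 3 elements in their windows, which says only that these letters are not there. Among 23 other array genes with ERSE or ERSE-II, 2 fell and 8 rose, where 14.2% of all genes fell and 20.0% rose. Their median was 0.06. UPRE was found in DNAJC10, HYOU1, SEC62, SSR3 and SSR4, of which 4 fell, and in 155 other array genes, of which 27 fell and 30 rose, shares near the 14.2% and 20.0% of all genes. The differences between these sets were not tested.

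**Figure D5:**
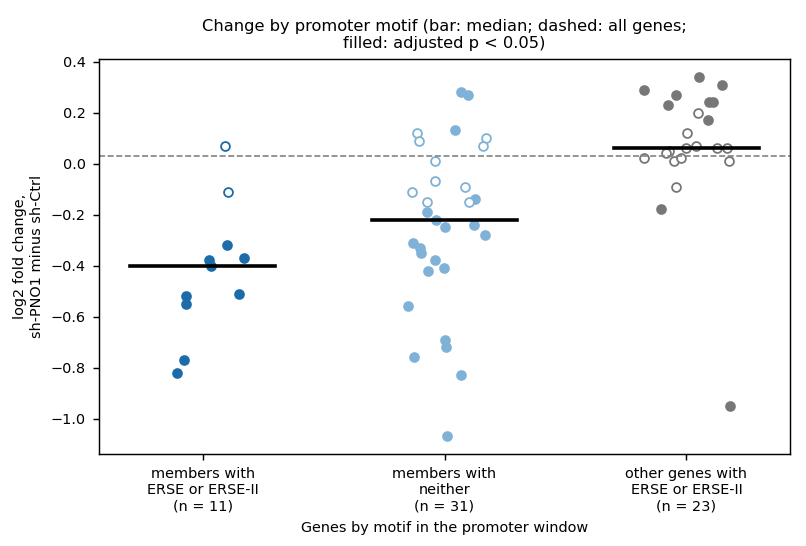
Log2 fold change, sh-PNO1 minus sh-Ctrl, of members with ERSE or ERSE-II in the promoter window (n = 11), members with neither (n = 31) and other array genes with either element (n = 23). Bars mark medians of −0.40, −0.22 and 0.06, and the dashed line the median of all genes. Most members with an element are folding genes.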

How the data were processed

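The deposited file holds 1 linear intensity for each probe set and array. RMA, without a version, is the tool named per the submitters' processing notes; its settings were not given in these sources. RMA usually returns log2 values, but the range of the values shows a linear scale. Normalisation between arrays leaves only changes relative to other genes. Here log2 was taken. Of 49395 probe sets, 102 were controls, 44988 had 1 gene symbol, 1832 several and 2473 none. A gene was represented by its brightest single-symbol probe set. All 18132 genes, and separately all 49293 probe sets, went through lmFit and eBayes of limma 3.58.1 under R 4.3.3, as sh-PNO1 minus sh-Ctrl with no covariate, Benjamini-Hochberg over all features, threshold 0.05. Probe set counts use the second fit. The fit was tested on simulated data.

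Members and lists were chosen with earlier results of these data known. Values on all 6 arrays are given for PNO1, the 5 folding and 4 translocation, degradation and sensor members of smallest adjusted p, and members called higher; the further lists name up to 2 called genes in each direction. Groups and replicate numbers came from the sample titles. Promoter motifs were chosen after the data were seen. Alternatives covered the replicate block, moderation, array weights, scaling, dim genes, the choice of probe set, a pseudocount of 16, a threshold of 0.01 and each array left out. The number of arrays limits the precision.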

Additional observations from a re-analysis of the deposited data

How the results depend on the processing

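Counts of member genes called kept within 1.5 times of 29 lower and 4 higher under every alternative run: 25 to 31 fell and 3 to 6 rose. Over probe sets, 53 were lower, against 92, when those of the suffix _x_at and _s_at were left out, which leaves fewer to test, and 5 were higher, against 9, at an adjusted p under 0.01. PNO1 passed throughout. Class medians kept their sign except for degradation. The folding median was −0.39 with quantile normalisation repeated, −0.35 with equal housekeeping means, −0.40 with probe sets averaged, −0.57 with the most variable probe set, −0.52 without _x_at and _s_at probe sets, −0.36 with a pseudocount of 16, and −0.40 to −0.36 with 1 array left out. The translocation median was −0.17 with equal housekeeping means, −0.30 with the most variable probe set and −0.13 without _x_at and _s_at probe sets. For degradation it was 0.06 with equal housekeeping means and −0.06 with the most variable probe set. That of the sensors was −0.11 averaged, −0.28 with the most variable probe set, −0.13 without _x_at and _s_at probe sets and −0.20 with the pseudocount. Single members changed sign as follows. Without _x_at and _s_at probe sets SSR1 stood at 0.33 and DNAJC10 at 0.08. Averaged, CRELD2 stood at 0.02, ERO1A at 0.11 and ERO1B at −0.03. With the most variable probe set CRELD2 stood at 0.15, ERO1A at 0.36 and SEL1L at −0.13. SEL1L stood at −0.002 with quantile normalisation. With 1 array left out ERO1B ran from −0.002 to 0.16 and SEL1L from −0.0008 to 0.02. The cause was not tested. CREB3L2 did not pass without _x_at and _s_at probe sets (−0.13, adjusted p = 0.19), nor SSR4 with equal housekeeping means (adjusted p = 0.126). Same-numbered samples correlated at −0.053, 0.116 and −0.021 in their deviations from the group means, and differently numbered samples at −0.079 to 0.101. The labels do not say whether same-numbered samples shared a batch or culture, and so few arrays cannot settle it. With the replicate number as a block 28 members fell and 3 rose, DERL2 (adjusted p = 0.0721) and SSR4 (0.0587) no longer passing.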

Other observations

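Apart from the members, 23 array genes had an exact ERSE or ERSE-II in the promoter window, a search made after the data were seen. Several also act in or on the ER. SERP1, which stabilises membrane proteins at the translocon, stood at a log2 fold change of 0.02 (limma adjusted p = 0.756), FICD, which modifies BiP, at −0.09 (adjusted p = 0.198) and ALG12, a mannosyltransferase of N-glycan synthesis, at 0.01 (adjusted p = 0.884). The 2 that fell were SHCBP1 (−0.95, adjusted p = 3.7e-05) and RAD9A, a subunit of a DNA damage checkpoint clamp (−0.18, adjusted p = 0.0171). Those that rose included CNKSR1 (0.34), the ATPase RUVBL2 (0.31), the glycogen synthase GYS1 (0.29) and EIF2A (0.27). Also higher were CAMTA1 (0.24), ZNF143 (0.24), NLRP4 (0.23) and NUCB1 (0.17, adjusted p = 0.0118).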
